A study of Rattus norvegicus with 287 samples.

Results

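Whole blood of obese Zucker Diabetic Fatty (ZDF) rats was set against whole blood of Lean Zucker rats, both from the control arm that ended at 7 weeks. The 10 libraries were chosen by title alone, 5 titled Control 7-weeks Obese ZDF Blood and 5 titled Control 7-weeks Lean Zucker Blood, out of 287 libraries in the series. The series tested pFUS, focused ultrasound given from outside the body, with the beam on the porta hepatis, where vessels and nerves enter the liver. All rats were anaesthetised with isoflurane for the procedure, and rats that got no ultrasound got a sham with no energy. Blood of 5 obese ZDF and 5 Lean Zucker rats given pFUS at 1.1 MHz for 3 minutes a day over 7 weeks served as a further comparison of the same kind in other animals. All 20 rats were male, and their age and genotype were not given in the labels. The obese and lean rats also carry different line names, so obesity and line cannot be told apart.

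As background, Zucker rats become obese through a defective receptor for leptin, the satiety hormone of fat tissue, and the ZDF line was bred from them for diabetes. Messenger RNA of whole blood comes mostly from young red cells (reticulocytes), which have no nucleus but still hold globin RNA. The rest comes from platelets and from white cells, among them neutrophils and monocytes of the innate defence and the T and B lymphocytes of adaptive immunity. In such bulk samples fewer cells of a type and less RNA per cell cannot be told apart.

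The 10 control libraries held 14542715 to 36498514 counts each. Globin genes took 87.6% to 90.4% of the counts in obese controls and 86.8% to 90.9% in lean controls, which left 1321826 to 4456982 counts for all other genes. Levels are given as CPM (gene counts scaled to a common library size with the TMM factors of edgeR), and fold changes are edgeR estimates with their standard error (SE). Adjusted p-values are from edgeR's quasi-likelihood test with Benjamini-Hochberg adjustment over the 9400 genes that passed the filter on low counts, with a threshold of 0.05. Lean control 12 had the fewest counts and the lowest TMM factor (0.41), with 4985 genes at 10 or more counts, against 7420 to 9574 in the other 9 control libraries. Lepr, the gene of the leptin receptor, had 0 or 1 count in every one of the 20 libraries, so blood gave no measure of it. Replicates are different rats, and no pair of libraries within a group was identical.

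A pair of libraries stood apart from their labels at some genes. Obese control 5 correlated most closely with lean pFUS 19 (Spearman rho 0.96 over the tested genes), and lean pFUS 19 most closely with obese control 5. Of the 194 genes that rose in obese controls, the other 4 obese controls all lay above the lean controls at 171, and at 53 of these obese control 5 lay within or below the lean range. Of the 67 that fell, the other 4 all lay below the lean controls at 60, and obese control 5 lay within or above the lean range at 20 of these. A set of 4 genes, found after the values were seen, separated all obese from all lean rats more than 2-fold in at least 2 of brain, liver and muscle. In blood, in CPM of library totals without TMM factors, Slc35f6 was at 1.60 in obese control 5, near the other obese controls (0.728 to 2.70) and above the lean controls (0.138 to 0.493). LOC100364500 was at 5.66 in obese control 5, within the lean controls (4.26 to 8.48) and above the other obese controls (0.435 to 1.13). In lean pFUS 19 Slc35f6 was at 2.59, above the other lean pFUS rats (0.0462 to 1.05), and LOC100364500 at 1.76, below them (2.68 to 10.6). Lcn2 was at 0.401 in obese control 5 (lean controls 0 to 0.0274) and at 0.569 in lean pFUS 19, where the other lean pFUS rats had 0. AABR07044383.1 was at 4.56 in obese control 5, within the lean controls (3.16 to 5.63), and at 4.50 in lean pFUS 19, within the other lean pFUS rats (2.54 to 7.62). So obese control 5 went with its label at 2 of these genes and against it at 2, and lean pFUS 19 went against its label at 3, and the main results are given with all libraries and without both.

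Obese control blood differed from lean control blood at 261 of the 9400 genes, 2.78% of those tested. Of these 194 were higher and 67 were lower in obese controls, and 145 of the rises but 23 of the falls were more than 2-fold. The largest rises with a level of at least 5 CPM included the interferon-stimulated gene Ifit1, the red cell genes Xpo7, Tmcc2 and Gypc, the mitotic spindle factor Tpx2 and the extracellular matrix gene Fbln1. The largest falls included the class II histocompatibility genes RT1-Bb and RT1-Ba, the chemokine receptor Ccr7 and the B lymphocyte genes Fcrla and Spib. The groups did not overlap at 158 of the 261 genes, and at 448 of all genes tested (4.77%). Without obese control 5 and lean pFUS 19 the count was 656 of 9551 genes (6.87%), 427 higher (4.47%) and 229 lower (2.4%). Of the 261 calls 259 were kept. Both libraries were picked after the values were seen, and they lay with the other line at some called genes. Leaving them out therefore favours more calls and smaller adjusted p-values, here and below, and gives no separate support. The count moved with single libraries: it was 13 without lean control 15, 56 without obese control 4, 59 without lean control 14, 70 without lean control 11, 111 without lean control 13, 149 without obese control 2, 166 without obese control 3 and 550 without obese control 5. Scaling by library totals alone, without TMM factors, left 41 rises and 2 falls. At an unadjusted p under 0.05 there were 1848 genes.

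Globin RNA and Alas2 mark the samples as blood rich in red cells. The summed globin share did not pass a permutation test and Alas2 did not pass in edgeR. Alas2 as a share of library totals was not put to the permutation test. The globin genes together took 89.1% ± 1.36 of counts in obese controls and 88.9% ± 1.75 in lean controls (SD, n = 5 each), a difference of 0.119 percentage points (exact two-sided permutation test, p = 0.929, with 0.00794 the smallest p that 5 against 5 can give). Hba-a1, an alpha-globin gene, took 35.0% ± 2.32 of counts in obese controls and 35.2% ± 1.39 in lean controls. Hbb, a beta-globin gene, took 18.3% ± 2.05 of counts in obese controls and 18.7% ± 1.57 in lean controls. Globin genes are near-identical copies, so their separate shares rest on how the authors' counting split the reads. None of the 8 globin genes tested passed, beside 2.78% of all genes. Alas2, which makes the first enzyme of haem synthesis in red cell precursors, had 3294, 3454, 5856, 2758 and 2626 CPM in obese controls, against 2279, 8105, 3435, 4903 and 3265 CPM in lean controls. The groups overlapped, and the log2 fold change was -0.29 ± 0.39 (SE, adjusted p = 0.739, edgeR). In CPM of library totals without TMM factors Alas2 was at 2863 to 3064 in obese controls and 3129 to 3700 in lean controls, with no overlap, where the Alas2 log2 fold change was -0.22 (adjusted p = 0.707, edgeR). The sign of the TMM-scaled value turned without lean control 12, the library with the highest Alas2 level.

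Tmcc2, Xpo7 and Gypc rose among red cell genes whose median change was near 0. Of 33 red cell and reticulocyte genes tested 3 rose and 0 fell, beside 2.06% of all genes that rose and 0.713% that fell. The median log2 fold change of the list was 0.06, against -0.01 over all genes. Without obese control 5 and lean pFUS 19, 8 rose and 0 fell, beside 4.47% of all genes that rose in that fit. Haem synthesis genes had a median of 0.64 with 0 of 12 called, beside 2.78% of all genes. Yet their summed counts, without TMM factors, were lower in each obese control, at 0.360% to 0.387% of the library, than in any lean control, at 0.389% to 0.449%. The summed counts of the red cell list made 1.11% to 1.54% of the library in obese controls and 1.14% to 1.30% in lean controls.

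Tmcc2, a membrane protein of the endoplasmic reticulum with high expression in the red cell lineage, had 2059, 2722, 3860 and 2209 CPM in obese controls 1 to 4, and 134 CPM in obese control 5. Lean controls had 124, 504, 205, 245 and 191 CPM. So 4 of 5 obese controls were far above every lean control and the fifth lay among them. The log2 fold change was 3.12 ± 0.59 (adjusted p = 0.0129, edgeR), and 3.42 ± 0.45 without obese control 5 and lean pFUS 19 (adjusted p = 8.96e-05). The adjusted p was 0.0528 without lean control 15.

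Xpo7, an exportin that carries proteins out of the nucleus and is abundant in maturing red cells, showed the same split. It had 151, 184, 265 and 287 CPM in obese controls 1 to 4 and 13.8 CPM in obese control 5, against 7.55, 29.4, 9.83, 10.7 and 9.12 CPM in lean controls. The log2 fold change was 3.79 ± 0.56 (adjusted p = 0.00375, edgeR). The annotation holds 2 transcripts of Xpo7. The minor one, ENSRNOT00000018440, had 34, 28, 22 and 15 counts in obese controls 1 to 4 and 0 in obese control 5, and 0 in each of the 5 lean controls. In other tissues the groups lay closer for Xpo7: in brain, in CPM of library totals without TMM factors, it ran from 122 to 148 in obese controls and from 75.9 to 117 in lean controls, and obese control 5 was the highest of them. In liver it ran from 51.7 to 71.9 in obese controls and from 16.1 to 63.5 in lean controls.

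Gypc encodes glycophorin C, which ties the red cell membrane to its skeleton. Its levels were 13.9, 17.7, 43.4 and 23.9 CPM in obese controls 1 to 4 and 3.65 CPM in obese control 5. Lean controls had 2.19, 4.68, 2.64, 2.47 and 3.29 CPM, so obese control 5 again lay within the lean range. The log2 fold change was 2.80 ± 0.45 (adjusted p = 0.00639, edgeR). The rise of Gypc was not confined to blood, in CPM of library totals without TMM factors. In liver it ran from 24.6 to 31.1 in obese controls and from 13.2 to 23.7 in lean controls. In muscle it ran from 54.7 to 66.45 in obese controls and from 24.2 to 43.6 in lean controls. Obese control 5 was at 27.0 in liver and 54.7 in muscle, above the lean controls. In brain and intestine the groups overlapped. Ifit1, Xpo7, Gypc and the lipid droplet gene Plin2 were the ones among the 52 genes followed through every refit that kept their call in all 10 refits that left out 1 control library. Over all 20 alternative settings Ifit1, Xpo7 and Gypc kept it too. Plin2 lost it in 1 of them, with an adjusted p of 0.230 (edgeR or DESeq2).

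**Figure D1:**
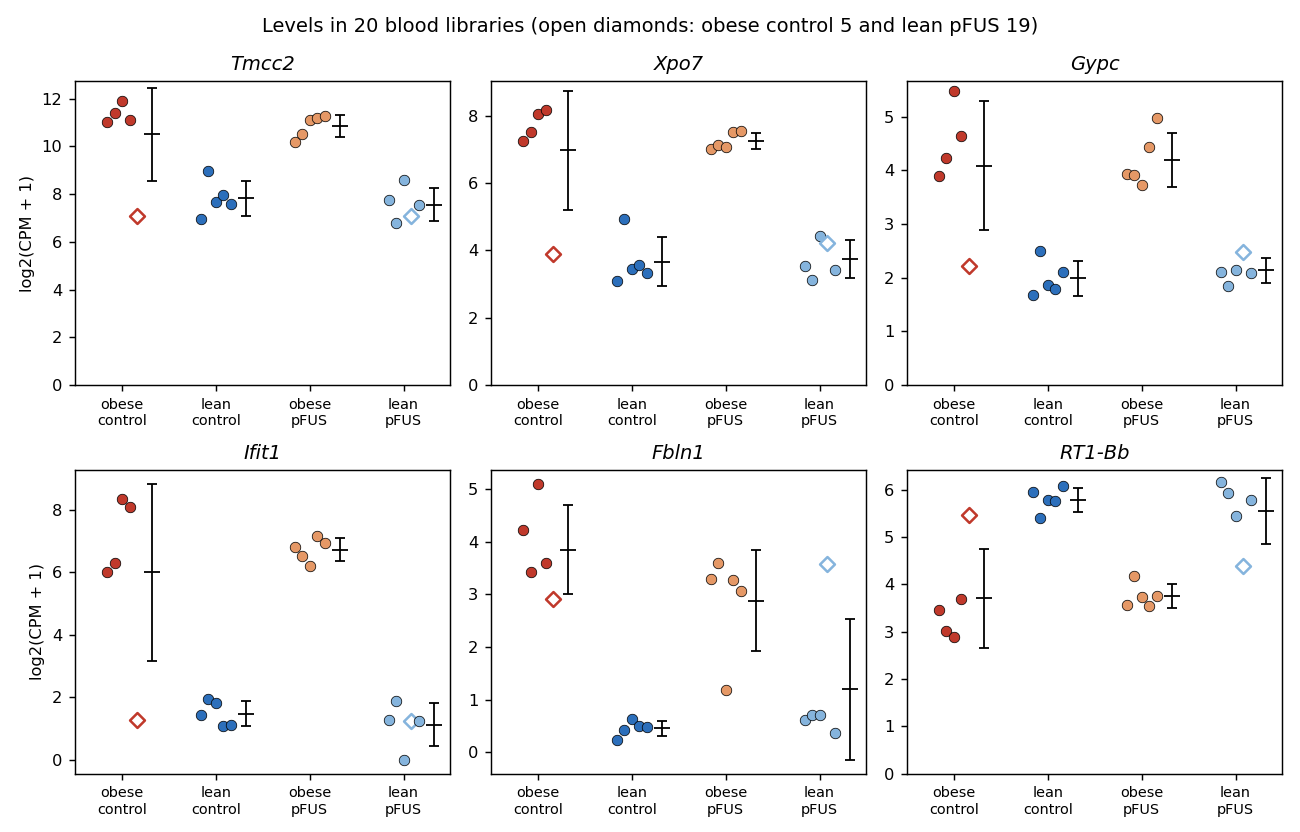
Levels of 6 genes in the 20 blood libraries, as log2(CPM + 1), by group, with the mean and SD of each group beside its points. Open diamonds are obese control 5 and lean pFUS 19. Obese control 5 lies with the lean rats for Tmcc2, Xpo7, Gypc, Ifit1 and RT1-Bb, and with the obese rats for Fbln1, where lean pFUS 19 lies with the obese rats too.

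The sequences before the start of Tmcc2 and Gypc, which rose, and of Alas2, which did not pass, are shown as genes of the red cell lineage, the first 2 from the red cell list and Alas2 from the haem synthesis list. They are the 250 bases before the gene's start in RefSeq (rat build GRCr8), on the strand of the gene, with matches in capitals, on either strand, to the word AGATAA, the word AGATAG, the word TGATAA or the word TGATAG, which may overlap. These letters are the core that GATA factors, the regulators of red cell genes, are known to bind. Of all 33469 promoter windows of this length 27.0% hold at least 1 such match. Tmcc2 lies at chr13:46383863-46384112 on the minus strand and holds 0 matches, Gypc at chr18:24467593-24467842 on the minus strand holds 2 that overlap each other, and Alas2 at chrX:22895200-22895449 on the plus strand holds 1.
Tmcc2: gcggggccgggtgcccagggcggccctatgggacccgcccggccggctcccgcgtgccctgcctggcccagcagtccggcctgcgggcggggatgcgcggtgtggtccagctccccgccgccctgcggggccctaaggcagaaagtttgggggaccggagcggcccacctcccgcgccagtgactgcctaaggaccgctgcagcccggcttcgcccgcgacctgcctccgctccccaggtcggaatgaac
Gypc: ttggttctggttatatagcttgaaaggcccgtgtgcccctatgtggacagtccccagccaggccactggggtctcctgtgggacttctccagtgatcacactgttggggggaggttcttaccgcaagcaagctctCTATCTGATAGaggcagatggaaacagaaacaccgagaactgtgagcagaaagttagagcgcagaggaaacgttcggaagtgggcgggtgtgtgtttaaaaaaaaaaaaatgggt
Alas2: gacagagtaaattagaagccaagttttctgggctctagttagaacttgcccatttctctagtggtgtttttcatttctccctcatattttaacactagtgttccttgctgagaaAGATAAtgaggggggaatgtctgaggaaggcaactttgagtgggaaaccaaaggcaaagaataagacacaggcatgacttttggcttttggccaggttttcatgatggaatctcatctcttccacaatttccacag

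Ifit1, an antiviral RNA-binding protein induced by interferon, showed one of the largest differences. It had 62.9, 77.1, 323 and 271 CPM in obese controls 1 to 4 and 1.41 CPM in obese control 5, against 1.73, 2.84, 2.55, 1.13 and 1.16 CPM in lean controls. The log2 fold change was 6.34 ± 0.96 (adjusted p = 0.00639, edgeR), and 6.66 ± 0.64 without obese control 5 and lean pFUS 19. The same rat, obese control 5, had 0 Ifit1 counts in brain, liver, muscle, intestine, kidney and pancreas. The other 4 obese controls had 9 to 55 counts in brain, 32 to 400 in liver, 5 to 32 in muscle, 206 to 2383 in intestine and 15 to 172 in kidney, but 0 to 5 in pancreas, where the 0 does not set obese control 5 apart. Lean controls had at most 4 counts in brain, liver, muscle and intestine. Libraries of one rat are not independent of each other.

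Of 41 interferon-stimulated genes tested 2 rose and 0 fell (2.06% of all genes rose), Ifit1 and Psmb8, a catalytic subunit of the immunoproteasome. The list's median log2 fold change was 0.47, and 35 of the 41 values were positive, beside 4562 of all 9400 genes. Members of a list are not independent of each other, here and below. Without obese control 5 and lean pFUS 19, 5 rose and 0 fell, with a median of 0.23, beside 4.47% of all genes that rose in that fit. Psmb8 had 16.6, 14.5, 17.8, 16.2 and 14.7 CPM in obese controls and 9.77, 6.52, 7.23, 8.97 and 11.0 CPM in lean controls, with no overlap (log2 fold change 0.86 ± 0.19, adjusted p = 0.0195, edgeR). Its call was lost in 4 of the 10 refits that left out 1 library, with an adjusted p of up to 0.0600 without lean control 13. The adjusted p of Psmb8 reached 0.998 over all alternative fits, changes of scaling included (edgeR or DESeq2).

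Of the genes of neutrophils and monocytes some rose, most did not pass and none fell. Beside 2.06% of all genes that rose, of 17 neutrophil granule genes tested 5 rose and 0 fell (median log2 fold change 0.92), of 15 neutrophil surface and migration genes 2 rose and 0 fell (median 0.51), and of 15 monocyte and macrophage genes 5 rose and 0 fell (median 0.77). As shares of library counts, without TMM factors, these lists overlapped between the groups: granule genes summed to 0.0564% to 0.164% of counts in obese controls and 0.0239% to 0.0996% in lean controls. Monocyte genes summed to 0.00733% to 0.0258% in obese controls and 0.00337% to 0.0154% in lean controls.

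Lyz2, the lysozyme of neutrophils and monocytes, had 797, 968, 851, 1272 and 669 CPM in obese controls and 558, 426, 449, 329 and 387 CPM in lean controls. Every obese control was above every lean control (log2 fold change 1.08 ± 0.30, adjusted p = 0.0475, edgeR). Lcn2, an iron-chelating granule protein, had 26, 32, 16, 10 and 8 counts in obese controls 1 to 5, against 0, 0, 0, 0 and 1 in lean controls (adjusted p = 0.0173, edgeR). No fold is given for it because the lean group holds 1 count in all. The rise of Lcn2 was not confined to blood, in CPM of library totals without TMM factors. Obese controls ran from 0.922 to 2.20 in brain and 2.64 to 8.33 in liver. Lean controls ran from 0.0814 to 0.189 in brain and 0.0425 to 0.168 in liver. In muscle the groups did not overlap either, while in intestine they did. Camp, the granule peptide cathelicidin, averaged 1.22 ± 0.988 CPM in obese controls and 0.425 ± 0.258 CPM in lean controls (SD, n = 5 each), with obese control 2 at 2.98 CPM and the other obese controls at 0.659 to 0.903 CPM. Cd177, a neutrophil surface protein, ran from 0.231 to 1.62 CPM in obese controls and from 0 to 0.234 CPM in lean controls. Cyba, a subunit of the oxidase that makes superoxide, rose least of the 5, at 12.0 ± 2.08 CPM in obese controls and 8.09 ± 0.32 CPM in lean controls. Without obese control 5 and lean pFUS 19 the adjusted p of Cyba was 0.0503. The calls of Lyz2 and Cyba were each lost in 9 of the 10 refits that left out 1 library (adjusted p up to 0.144 and 0.135, both without obese control 4), those of Cd177, Camp and Lcn2 in 6, 5 and 3. Over all alternative fits, changes of scaling included, the adjusted p went higher for most of these genes. It reached 0.954 for Lyz2, 0.998 for Cyba, 0.257 for Camp and 0.198 for Cd177 (edgeR or DESeq2).

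Among monocyte genes Csf1r, the receptor for the monocyte growth factor CSF1, had 65.9, 58.5, 57.6, 95.0 and 64.3 CPM in obese controls, and 39.7, 23.6, 32.5, 29.9 and 36.7 CPM in lean controls. Again no obese control reached down to a lean one (log2 fold change 1.07 ± 0.29, adjusted p = 0.0466, edgeR). Adgre1, the F4/80 antigen, had 9.42, 8.42, 6.76, 11.2 and 6.86 CPM in obese controls and 4.16, 2.17, 4.17, 3.46 and 4.04 CPM in lean controls (log2 fold change 1.20 ± 0.27, adjusted p = 0.0215). Cd68, a lysosomal glycoprotein of phagocytes, was at 20.6 CPM in obese control 4 and 9.10 to 10.9 CPM in the other obese controls, against 3.68 to 6.82 CPM in lean controls. The lectin receptors Clec4a3 and Clec4a1 rose by 1.32 ± 0.32 and 0.88 ± 0.23 on the log2 scale, and as members of a gene cluster of close copies they may share reads. Calls in this group were lost in 3 of 10 refits for Adgre1, 5 for Clec4a1, 6 for Clec4a3, 7 for Cd68 and 9 for Csf1r, each with the highest adjusted p without obese control 4, of 0.0702 to 0.137. With all alternative fits counted, changes of scaling included, none of these calls was kept throughout. The adjusted p reached 0.671 for Adgre1, 0.965 for Clec4a1, 0.504 for Clec4a3, 0.896 for Cd68 and 0.797 for Csf1r (edgeR or DESeq2).

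Fcgr3a, an Fc receptor of neutrophils, monocytes and natural killer cells, averaged 1.82 ± 0.741 CPM in obese controls and 0.365 ± 0.143 CPM in lean controls with no overlap (log2 fold change 2.26 ± 0.58, adjusted p = 0.0392, edgeR). Ceacam1, an adhesion receptor, averaged 3.33 ± 0.762 CPM in obese controls and 1.64 ± 0.303 CPM in lean controls, also with no overlap (adjusted p = 0.0131). Haptoglobin, Hp, which binds free haemoglobin and is stored in granules, averaged 6.02 ± 1.39 CPM in obese controls and 3.00 ± 0.687 CPM in lean controls (adjusted p = 0.0419). It was the 1 of 19 cytokine, chemokine and NF-kB genes tested that rose, with 0 falls, beside 2.06% of all genes that rose. Of 16 natural killer and cytotoxic cell genes 1 rose, beside 2.06% of all genes, and the median of that list was -0.01. The gene was Cst7, an inhibitor of lysosomal proteases, at 2.76 ± 0.844 CPM in obese controls and 1.25 ± 0.399 CPM in lean controls (adjusted p = 0.0173, edgeR). With 1 library left out the call of Ceacam1 was lost once, without lean control 15, that of Cst7 in 3 of 10 refits, that of Hp in 7 and that of Fcgr3a in 8. Among all alternative fits the adjusted p reached 0.801 for Ceacam1, 0.884 for Cst7, 0.878 for Hp and 0.140 for Fcgr3a (edgeR or DESeq2).

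**Figure D2:**
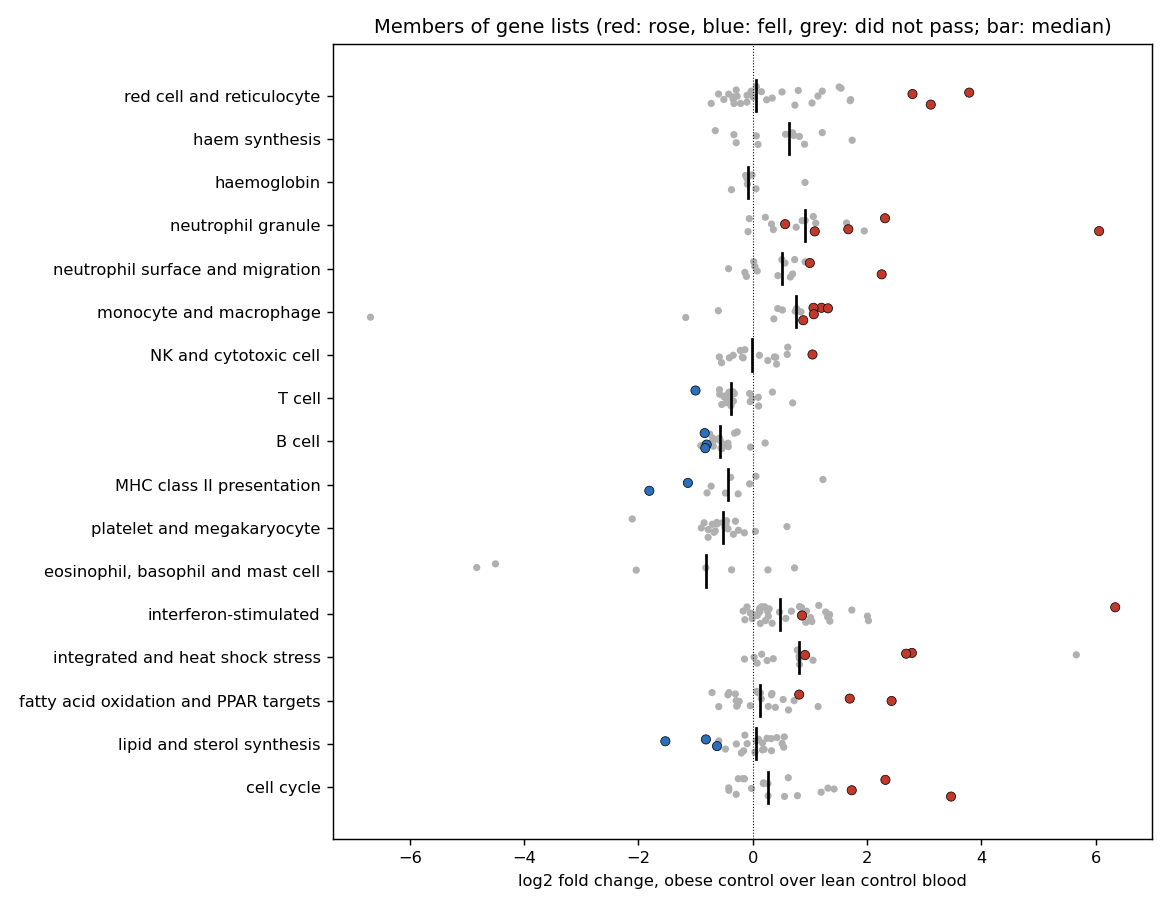
Log2 fold change of obese over lean control blood for each tested member of 17 gene lists, by row. Filled red points passed upward, blue points passed downward, grey points did not pass, and the bar is the median of the list. Passing members lie to the right in the neutrophil and monocyte rows and to the left in the B cell, T cell and class II rows.

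Of the lymphocyte and class II genes some fell, most did not pass and none rose. Beside 0.713% of all genes that fell, of 20 B cell genes tested 0 rose and 3 fell, with a median log2 fold change of -0.57 and 19 negative values. Over all 9400 genes 4835 values were negative. Of 10 genes of class II presentation 0 rose and 2 fell (median -0.43), and of 23 T cell genes 0 rose and 1 fell (median -0.38). Without obese control 5 and lean pFUS 19 8 B cell genes, 4 class II genes and 6 T cell genes fell. In that fit 2.4% of all genes fell. As shares of library counts, B cell genes summed to 0.00989% to 0.0348% in obese controls and 0.0103% to 0.0529% in lean controls, and T cell genes to 0.00922% to 0.0260% in obese controls and 0.00783% to 0.0371% in lean controls, so the sums overlapped.

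RT1-Bb and RT1-Ba encode the beta and alpha chains of a rat class II molecule, which shows antigen to helper T cells. RT1-Bb had 10.0, 7.06, 6.38 and 11.9 CPM in obese controls 1 to 4 and 43.1 CPM in obese control 5. Lean controls had 60.8, 41.3, 54.0, 52.9 and 66.2 CPM, so obese control 5 lay within their range. The log2 fold change was -1.81 ± 0.42 (adjusted p = 0.0261, edgeR), and -2.63 ± 0.25 without obese control 5 and lean pFUS 19 (adjusted p = 6.75e-06). RT1-Ba had 21.1, 16.8, 12.8, 27.7 and 44.5 CPM in obese controls and 62.3, 40.4, 48.3, 51.1 and 67.3 CPM in lean controls (log2 fold change -1.13 ± 0.29, adjusted p = 0.0356). Each lost its call in 8 of the 10 refits that left out 1 library. The adjusted p was up to 0.0777 for RT1-Bb without obese control 4 and up to 0.105 for RT1-Ba without lean control 15. Scaled by library totals, without TMM factors, the adjusted p was 0.372 for RT1-Bb and 0.569 for RT1-Ba (edgeR). Of the 6 RT1-Bb transcripts counted, ENSRNOT00000082136 ran the other way, with 109, 46, 30 and 134 counts in obese controls 1 to 4 and 0 in obese control 5, and 0 in every lean control. It had 74 to 456 counts in obese pFUS rats and 0 in every lean pFUS rat. ENSRNOT00000000525, which made 75.6% of the gene's counts in obese controls and 98.1% in lean controls, had 171, 82, 38, 126 and 946 counts in obese controls and 2040, 243, 1227, 731 and 2698 in lean controls. Class II genes differ in sequence between rat lines and resemble one another, and whether reads of both lines map equally well was not tested.

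The 250 bases before the start of each of this pair are shown because both genes fell. They are from RefSeq (GRCr8) on the strand of the gene, with CTGATTGG, the Y box known from class II promoters, in capitals where it occurs on either strand. Of the 33469 windows 3.19% hold it. RT1-Ba lies at chr20:4576807-4577056 on the plus strand and RT1-Bb at chr20:4604119-4604368 on the minus strand, and each holds 1 match.
RT1-Ba: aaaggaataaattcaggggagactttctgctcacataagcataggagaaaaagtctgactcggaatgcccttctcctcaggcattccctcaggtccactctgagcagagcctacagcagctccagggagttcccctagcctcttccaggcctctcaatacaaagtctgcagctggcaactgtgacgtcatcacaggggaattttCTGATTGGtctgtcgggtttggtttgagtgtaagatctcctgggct
RT1-Bb: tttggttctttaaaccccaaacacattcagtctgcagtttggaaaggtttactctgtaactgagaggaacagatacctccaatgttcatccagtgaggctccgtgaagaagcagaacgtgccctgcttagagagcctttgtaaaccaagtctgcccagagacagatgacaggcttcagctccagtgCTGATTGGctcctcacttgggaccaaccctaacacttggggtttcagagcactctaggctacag

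Ccr7, the receptor that guides lymphocytes and dendritic cells to lymph nodes, was the T cell list's fall. It had 13.9, 8.31, 8.91, 10.9 and 21.1 CPM in obese controls and 28.6, 19.7, 23.7, 25.3 and 29.0 CPM in lean controls (adjusted p = 0.0254, edgeR), so obese control 5 was the 1 obese control within the lean range. Spib, a transcription factor of B cells and plasmacytoid dendritic cells, averaged 7.92 ± 1.56 CPM in obese controls and 14.0 ± 2.29 CPM in lean controls, with no overlap (log2 fold change -0.83 ± 0.20, adjusted p = 0.0265). Fcrla, an Fc receptor-like protein kept inside B cells, averaged 6.50 ± 2.15 CPM in obese controls and 11.6 ± 2.74 CPM in lean controls (log2 fold change -0.84 ± 0.21, adjusted p = 0.0306). The calls of Ccr7, Spib and Fcrla were each lost in 6 of the 10 refits, with an adjusted p of up to 0.117 for Fcrla without lean control 15. Scaled by library totals, without TMM factors, all 3 missed the threshold, with an adjusted p of 0.671 for Ccr7, 0.749 for Spib and 0.878 for Fcrla (edgeR).

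The other falls of largest size were adaptors and regulators of several kinds. Hsh2d, an SH2 adaptor of blood cells, averaged 4.55 ± 1.98 CPM in obese controls and 10.1 ± 2.17 CPM in lean controls with no overlap (log2 fold change -1.15 ± 0.24, adjusted p = 0.0163, edgeR). Fbxo42, a substrate adaptor of a ubiquitin ligase, averaged 10.1 ± 2.59 CPM in obese controls and 22.3 ± 8.86 CPM in lean controls, where lean control 12 was at 37.8 CPM. Pik3ip1, an inhibitor of PI3 kinase, averaged 3.47 ± 0.464 CPM in obese controls and 6.39 ± 1.61 CPM in lean controls (adjusted p = 0.014). Fam102a fell by 0.91 on the log2 scale (adjusted p = 0.0377). With 1 library left out the call of Pik3ip1 was lost once, without lean control 15, that of Hsh2d in 3 of 10 refits, that of Fbxo42 in 5 and that of Fam102a in 7, the last of these with an adjusted p of up to 0.114 without obese control 4. Without TMM factors all of them missed the threshold. The adjusted p was then 0.592 for Hsh2d, 0.287 for Fbxo42, 0.671 for Pik3ip1 and 0.884 for Fam102a (edgeR).

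Platelet and granulocyte genes of the allergic type gave no call between controls, beside 2.78% of all genes called. At that share lists this short may hold no call. Of 21 platelet and megakaryocyte genes 0 rose and 0 fell, yet 19 of the 21 values were negative and the median was -0.53. Of all 9400 genes 4835 had negative values. Nrgn, a calmodulin-binding protein of platelets, had 22.8, 170, 178, 14.3 and 99.7 CPM in obese controls and 106, 127, 94.1, 178 and 108 CPM in lean controls, so that the obese controls spread on both sides of the lean ones. Of 7 eosinophil, basophil and mast cell genes tested 0 rose and 0 fell (median -0.82). Ccr3, the eosinophil eotaxin receptor, averaged 2.38 ± 1.02 CPM in obese controls and 2.00 ± 0.735 CPM in lean controls.

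Of the genes of lipid handling some rose, some fell and most did not pass. Of 25 genes of fatty acid oxidation and PPAR targets 3 rose and 0 fell, beside 2.06% of all genes that rose. The list's median was 0.13. Plin2, which coats lipid droplets, had 6.95, 9.04, 8.09, 11.4 and 5.93 CPM in obese controls and 2.87, 1.34, 2.47, 2.61 and 2.93 CPM in lean controls. All 5 obese controls lay at more than the highest lean level, obese control 5 included (log2 fold change 1.70 ± 0.26, adjusted p = 0.00375, edgeR). Cpt1a, which admits long-chain fatty acids to mitochondria, averaged 3.90 ± 1.14 CPM in obese controls and 2.18 ± 0.428 CPM in lean controls (adjusted p = 0.0315). Angptl4, a secreted inhibitor of lipoprotein lipase, averaged 0.731 ± 0.462 CPM in obese controls and 0.127 ± 0.149 CPM in lean controls (adjusted p = 0.0191). The calls of Cpt1a and Angptl4 were lost in 6 and 3 of the 10 refits, with an adjusted p of up to 0.100 and 0.0720 without obese control 4. Counting all alternative fits, the adjusted p reached 0.230 for Plin2, 0.968 for Cpt1a and 0.0917 for Angptl4 (edgeR or DESeq2).

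Of 23 genes of lipid and sterol synthesis 0 rose and 3 fell, beside 0.713% of all genes that fell, with a list median of 0.06. Scd, a desaturase that makes monounsaturated fatty acids, had 0.452, 0.471, 0.442 and 0.462 CPM in obese controls 1 to 4 and 1.23 CPM in obese control 5. Lean controls had 1.93, 1.00, 2.25, 1.41 and 1.84 CPM, so obese controls 1 to 4 were below all of them and obese control 5 within their range (log2 fold change -1.53 ± 0.30, adjusted p = 0.0153, edgeR). The related desaturase Scd2 averaged 7.24 ± 2.20 CPM in obese controls and 12.8 ± 1.17 CPM in lean controls with no overlap (adjusted p = 0.0269). Fasn, the fatty acid synthase, averaged 5.01 ± 1.28 CPM in obese controls and 7.63 ± 1.39 CPM in lean controls (adjusted p = 0.0386). With 1 library left out the call of Scd was lost once, without lean control 15, that of Scd2 in 5 of 10 refits and that of Fasn in 8. In all alternative fits together the adjusted p reached 0.271 for Scd, 0.925 for Scd2 and 0.998 for Fasn (edgeR or DESeq2). Tkt, transketolase of the pentose phosphate pathway, was the 1 of 27 glycolysis and glucose handling genes that passed, beside 2.78% of all genes. It had 42.4 ± 7.80 CPM in obese controls and 23.9 ± 3.06 CPM in lean controls (adjusted p = 0.0337, edgeR). Its call was lost in 8 of the 10 refits, with an adjusted p of up to 0.110 without obese control 4, and of up to 0.981 over all alternative fits (edgeR or DESeq2). Of 13 genes of insulin and leptin signalling 0 passed in either direction, beside 2.78% of all genes.

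**Figure D3:**
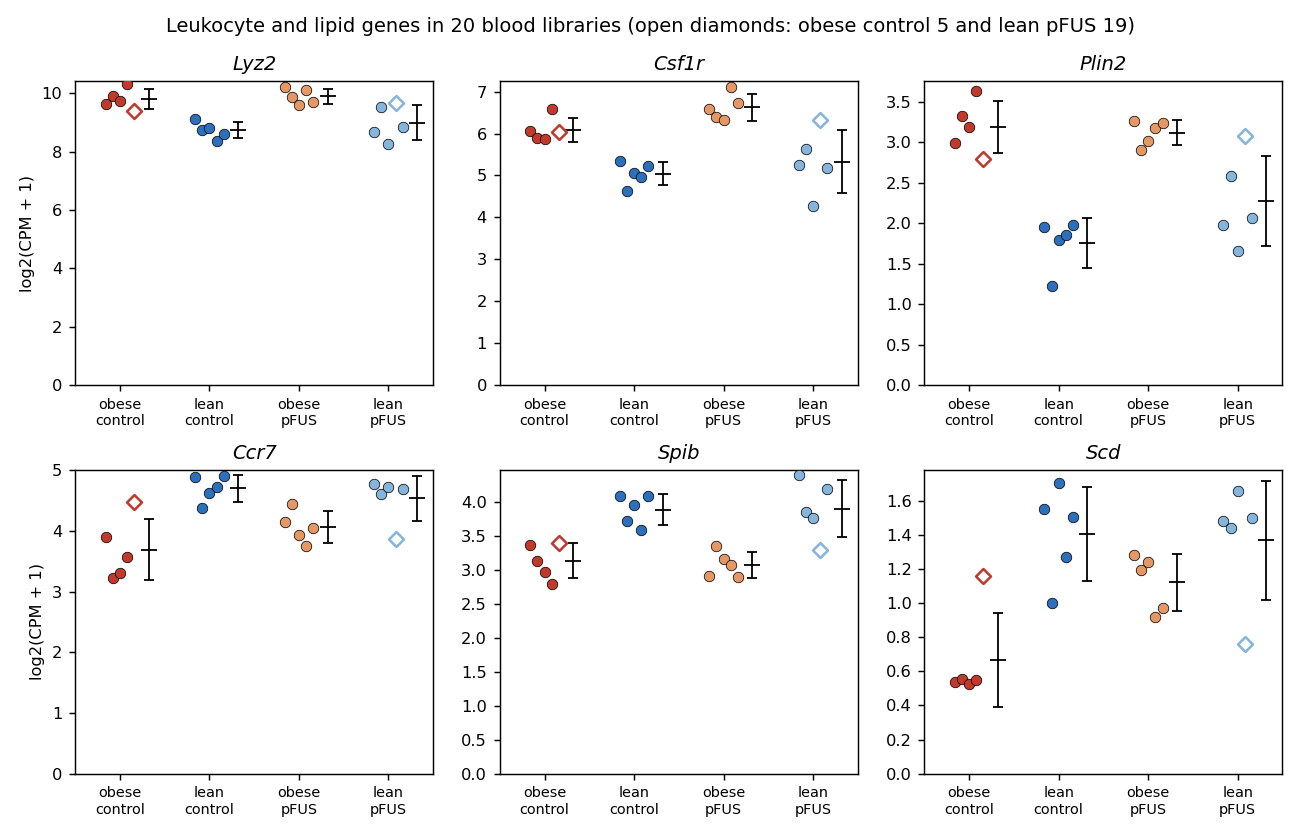
Levels of 6 leukocyte and lipid genes in the 20 blood libraries as log2(CPM + 1), by group, with the mean and SD of each group beside its points and obese control 5 and lean pFUS 19 as open diamonds. All 5 obese controls lie above all 5 lean controls for Lyz2, Csf1r and Plin2, while for Ccr7, Spib and Scd obese control 5 lies nearer to the lean controls than the other obese controls do.

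Stress genes were high in some obese controls. Of 17 genes of the integrated and heat shock stress responses 3 rose and 0 fell, beside 2.06% of all genes that rose. Of the 17 values 16 were positive (median 0.81), beside 4562 of all 9400 genes. Hsp90aa1, an inducible chaperone, had 6.92, 81.4, 31.4, 10.7 and 7.87 CPM in obese controls, against 5.12, 5.51, 2.34, 3.81 and 3.60 CPM in lean controls (log2 fold change 2.78 ± 0.74, adjusted p = 0.0495, edgeR). Hsph1, a chaperone partner of HSP70, had 1.91, 39.6, 41.9, 3.19 and 4.13 CPM in obese controls and 2.81, 2.51, 2.17, 3.53 and 2.93 CPM in lean controls, so obese controls 2 and 3 alone stood high (adjusted p = 0.039). Dnaja1, a co-chaperone outside the list, was likewise highest in obese controls 2 and 3, at 34.4 and 20.5 CPM, with 4.39 to 6.54 CPM in the other obese controls and 2.60 to 3.75 CPM in lean controls (adjusted p = 0.0288). Atf4, the transcription factor of the integrated stress response, averaged 21.7 ± 8.92 CPM in obese controls and 11.6 ± 1.92 CPM in lean controls (adjusted p = 0.0324). Without obese control 2 the adjusted p of Hsp90aa1 was 0.146, and the calls of Hsp90aa1, Hsph1, Dnaja1 and Atf4 were lost in 8, 7, 6 and 7 of the 10 refits.

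Between pFUS rats these chaperones did not pass. The log2 fold change of obese over lean pFUS blood was -0.27 for Hsp90aa1, -0.23 for Hsph1 and -0.11 for Dnaja1, and the difference of the 2 effects was -3.05, -2.91 and -2.28, none of which passed (adjusted p = 1 each, edgeR). Hmox1, haem oxygenase, was the 1 of 19 antioxidant genes that rose between controls, beside 2.06% of all genes. It was at 1.79 ± 1.00 CPM in obese controls and 0.707 ± 0.126 CPM in lean controls (adjusted p = 0.0336, edgeR). Its call was lost in 7 of the 10 refits, with an adjusted p of up to 0.105 without lean control 15.

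**Figure D4:**
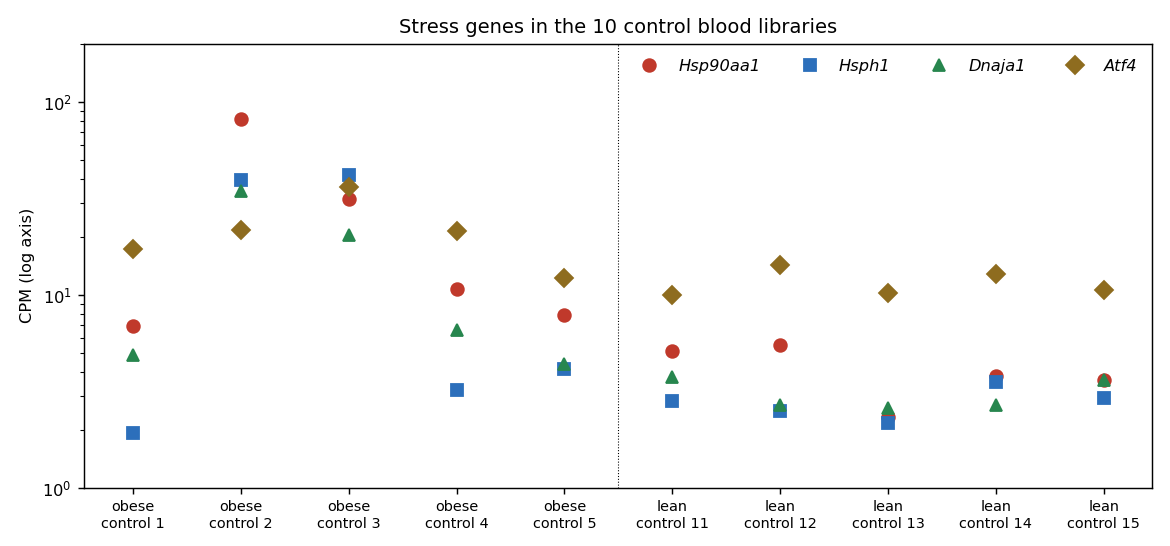
Levels of Hsp90aa1, Hsph1, Dnaja1 and Atf4 in CPM on a log axis, one column for each of the 10 control libraries, obese controls left of lean controls. Obese controls 2 and 3 hold the highest chaperone levels, while Hsph1 in obese control 1 lies below all 5 lean controls.

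Cell cycle genes in blood can come from dividing precursors. Of 20 tested 3 rose and 0 fell (median 0.27), beside 2.06% of all genes that rose. The 3 were Tpx2, the mitotic kinase Bub1 and Rrm2, a subunit of ribonucleotide reductase. Tpx2 had 10.7, 9.93, 29.5 and 13.9 CPM in obese controls 1 to 4 and 1.23 CPM in obese control 5, against 0.761, 2.34, 1.19, 1.41 and 0.919 CPM in lean controls (log2 fold change 3.47 ± 0.58, adjusted p = 0.0102, edgeR). Bub1 averaged 1.48 ± 0.954 CPM in obese controls and 0.393 ± 0.348 CPM in lean controls, and Rrm2 0.934 ± 0.537 CPM in obese controls and 0.378 ± 0.362 CPM in lean controls. For all 3 obese control 5 lay within the lean range, and lean control 12 was the highest lean control. The calls of Tpx2, Bub1 and Rrm2 were lost in 1, 4 and 7 of the 10 refits, and without lean control 15 all 3 missed the threshold, with an adjusted p of 0.0507 for Tpx2, 0.0682 for Bub1 and 0.152 for Rrm2.

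The remaining largest rises were Gstt3, Fbln1, Fam111a and Als2cl. Gstt3, a glutathione S-transferase of the theta class, had 3.58, 10.1, 31.4, 7.54 and 1.19 CPM in obese controls and 0.146, 0.334, 0.0425, 0.283 and 0.0484 CPM in lean controls, with no overlap (log2 fold change 6.39 ± 1.34, adjusted p = 0.0196, edgeR). Its call was lost in 4 of the 10 refits, with an adjusted p of up to 0.0739 without lean control 15. Fam111a, a protease with roles in DNA replication, had 5.94, 5.65, 13.7 and 9.27 CPM in obese controls 1 to 4 and 0.396 CPM in obese control 5, against 0.580 to 3.68 CPM in lean controls (adjusted p = 0.0361). Als2cl, a relative of the small GTPase regulator alsin, averaged 5.40 ± 4.22 CPM in obese controls and 1.42 ± 0.923 CPM in lean controls (adjusted p = 0.0288). The calls of Fam111a and Als2cl were lost in 7 and 6 of the 10 refits, with an adjusted p of up to 0.118 and 0.102 without lean control 15.

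Fbln1, the matrix glycoprotein fibulin 1, differed mostly in the counts of 1 of its 2 transcripts. The gene had 17.7, 9.72, 33.5, 11.1 and 6.55 CPM in obese controls, against 0.176, 0.334, 0.553, 0.424 and 0.387 CPM in lean controls, without overlap (log2 fold change 5.40 ± 1.03, adjusted p = 0.0163, edgeR). The call was lost without lean control 15. Transcript ENSRNOT00000088042 had 486, 167, 495, 254 and 142 counts in obese controls and 0, 0, 0, 1 and 9 counts in lean controls. The other, ENSRNOT00000047234, had 23, 18, 34, 33 and 6 counts in obese controls and 6, 2, 13, 5 and 6 counts in lean controls. So the first made 93.1% of the gene's summed counts in obese controls and 23.8% in lean controls. Lean pFUS 19 had 227 counts of it and the other lean pFUS rats 0 to 11. In brain and intestine Fbln1 overlapped between the groups, in CPM of library totals without TMM factors, at 41.8 to 85.9 in obese controls and 41.9 to 85.1 in lean controls for intestine. Of 5 markers of other tissues that could be tested in blood Fbln1 was the 1 that passed, beside 2.78% of all genes.

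The same contrast in rats given pFUS, which shares no library with the control contrast but shares its fit, called 275 genes (2.93%), 180 higher (1.91%) and 95 lower (1.01%) in obese pFUS blood. Both contrasts called 106 genes in the same direction, 40.6% of the calls between controls and 38.5% of those between pFUS rats, and none in opposite directions. Of the 261 genes called between controls 254 had the same sign between pFUS rats. The share with the same sign over all genes tested was not computed, so that count has no background beside it. The median log2 fold change of the 194 rises was 1.34 between controls and 0.93 between pFUS rats, and of the 67 falls -0.88 between controls and -0.54 between pFUS rats. Ifit1 had 111, 91.5, 72.2, 141 and 122 CPM in obese pFUS rats and 1.45, 2.71, 0, 1.35 and 1.37 CPM in lean pFUS rats. Xpo7 had 129, 139, 135, 181 and 185 CPM in obese pFUS rats and 10.7, 7.66, 20.4, 17.7 and 9.64 CPM in lean pFUS rats, and Tmcc2 1166 to 2464 CPM in obese pFUS rats and 109 to 388 CPM in lean pFUS rats. For these 3 genes every obese pFUS rat was above every lean one. RT1-Bb had 10.8, 17.0, 12.2, 10.6 and 12.4 CPM in obese pFUS rats and 71.1, 59.9, 42.8, 19.9 and 54.0 CPM in lean pFUS rats, again with no overlap (log2 fold change -1.97 ± 0.42, adjusted p = 0.0177, edgeR).

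Between pFUS rats 1.91% of all genes rose and 1.01% fell. Beside these shares 4 of 20 B cell genes fell, and 6 of 15 monocyte genes rose while 1 fell. Of 17 neutrophil granule genes 1 rose between pFUS rats, against 5 between controls. The interferon list had a median log2 fold change of -0.28 between pFUS rats and 0.47 between controls. Of 7 eosinophil, basophil and mast cell genes 4 fell between pFUS rats (median -2.34), against 0 between controls (median -0.82). The test of the difference between the contrasts called 0 genes (338 at an unadjusted p under 0.05), and 0 without obese control 5 and lean pFUS 19. DESeq2 called 1 gene in that test. The number of calls between pFUS rats was 658 without those libraries (6.89%), 426 higher (4.46%) and 232 lower (2.43%), and it fell to 74 without lean pFUS 20, 83 without obese pFUS 9 and 87 without lean pFUS 16.

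**Figure D5:**
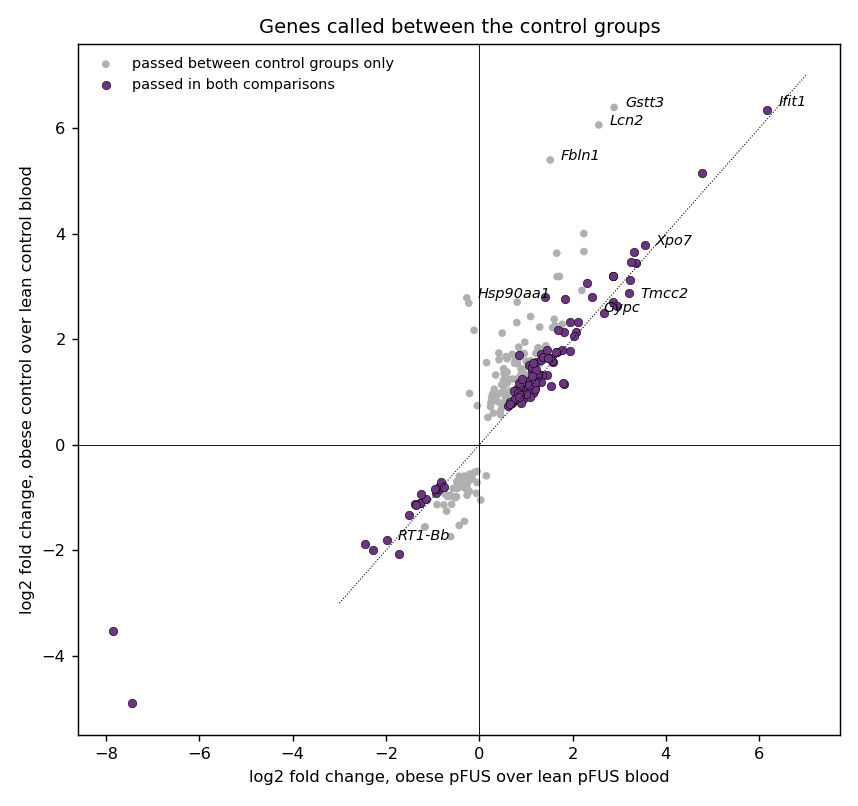
Log2 fold change of the 261 genes called between control groups, with obese over lean pFUS blood on the x axis and obese over lean control blood on the y axis. Purple points (106) passed in both contrasts, grey points only between controls, and the dotted line marks equal changes. The signs match for 254 of the 261 genes, and Gstt3, Lcn2, Fbln1 and Hsp90aa1 lie far above the line.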

How the data were processed

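Blood RNA was sequenced from stranded mRNA libraries, per the labels' protocols. The submitters' processing notes name STAR 2.5.3a, RSEM and the build Rnor_6.0. Which annotation release was used is not stated there. RSEM's expected counts, per gene and per transcript, were deposited by the authors without normalization, and all are whole numbers. No column of the gene table was left unmapped to a sample.

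The 20 blood libraries of the 7-week cohort were fitted together in edgeR 4.0.16 (R 4.3.3), with TMM factors, filterByExpr at a minimum count of 10, robust dispersions and quasi-likelihood F tests. SE was taken as the size of the log2 fold change divided by the root of its F statistic. The 4 groups were obese and lean, control and pFUS, and the difference of both contrasts was tested as an interaction. Precision is set by depth after globin and by 5 rats a group. Counts were simulated for the control contrast with 200 genes changed, and 9241 genes passed the filter. Of 2-fold changes 46% and of 4-fold changes 91% were recovered, with 5 false calls. Simulated counts varied gene by gene, with no library apart from its group. These rates therefore leave out the swing of calls with single libraries.

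Members, lists (26, besides globin genes) and tests were chosen with earlier results of these data known. The text names, among called genes with a usable symbol and at least 5 CPM on average in 1 group, the 12 largest rises and falls, up to 6 called members of a list (2 of highest level where none passed), Alas2, globin genes and Lepr, though not all of them. Slc35f6, LOC100364500 and AABR07044383.1 were chosen after their values were seen, and Dnaja1 belongs to no list. Lists not described in the report (circadian clock, glucocorticoid targets, immediate early, proteasome and ubiquitin, complement) had 0 calls between control groups, beside 2.78% of all genes. Promoter sequences are from RefSeq (GRCr8), whose table held 41 of the 52 genes followed through the alternatives, and no coordinate was converted between builds. Alternatives were RLE factors, DESeq2 1.42.0, no filter, a minimum count of 30, globin genes out of the scaling, 2 groups only, and leaving out libraries. Fits without obese control 5 and lean pFUS 19, without those and lean control 12 and lean pFUS 18, and without TMM factors were added after seeing the data. Python 3.11.15, numpy 2.4.6, pandas 2.3.3 and matplotlib 3.10.9 were used.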

Additional observations from a re-analysis of the deposited data

Results flagged for a closer look

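Single libraries stood far from the rest of their group of 5 in 20 of the 210 groups of values examined by Dixon's test at the 95% level, where chance alone gives about 1 in 20. Lean control 12 accounted for 6 of them: it was high for Xpo7 (29.4 CPM), Fam111a (3.68) and Bub1 (1.00) and low for Fam102a (6.52), Plin2 (1.34) and Fasn (5.18). Lean pFUS 19 accounted for 5, high for Fbln1 (11.0 CPM, others 0.288 to 0.646), Fcgr3a (3.39) and Lcn2 (0.511, others 0), and low for Ccr7 (13.7) and Scd (0.697). Obese control 5 was low for Tmcc2 (134 CPM) and Xpo7 (13.8) and high for Scd (1.23). Obese control 4 was high for Csf1r (95.0 CPM) and Cd68 (20.6). The other 4 were Camp in obese control 2 (2.98 CPM), Lcn2 in lean control 15 (0.0242 CPM, 1 count), Atf4 in obese pFUS 10 (21.2 CPM) and Fbln1 in obese pFUS 8 (1.28 CPM, others 7.33 to 11.1). For Lcn2 the other 4 lean rats are at 0, so a single count is enough for a flag, and both Lcn2 flags carry no weight against the chance rate. Causes were not tested.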

How the results depend on the processing

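No paired analysis was possible because the replicate numbers of the groups name different rats. Of the genes called between control groups, 261 as reported, 551 were called by DESeq2, 630 without lean control 12 and lean pFUS 18, 656 without obese control 5 and lean pFUS 19 and 1325 without all 4. Scaling by library totals alone gave 43, of which 95.3% were higher, against 74.3% as reported. Leaving out 1 library gave 13 to 550. Between pFUS groups, 275 as reported, DESeq2 called 500, a fit of only these groups 174, the fit without obese control 5 and lean pFUS 19 658, the fit without all 4 libraries 766, and library totals 111, with the median of all genes at 0.46 against -0.03 on the log2 scale. Leaving out 1 library gave 74 to 642. The difference of the contrasts gave 0 calls in all settings but DESeq2, which called 1. The difference in globin share, 0.119 points, ran from -0.424 to 0.610 with 1 library left out, so its sign was not settled. Of the named genes 3 changed sign, none of them called. Alas2, at -0.29, ran from -0.55 to 0.035 with 1 library left out, Hba-a1 from -0.34 to 0.25 and Hbb from -0.35 to 0.23. Alas2 was at 0.035 without lean control 12, 0.050 without lean control 12 and lean pFUS 18 and 0.14 without all 4. Hba-a1, at -0.09, was at 0.25, 0.27 and 0.34 in these settings and 0.01 without obese control 4. Hbb, at -0.12, was at 0.23, 0.24 and 0.38 in them, and at 0.019 without obese control 5 and 0.018 without it and lean pFUS 19. Over the single genes 712 values kept direction and side of the threshold and 307 lost the call. RLE factors, no filter, a minimum count of 30 and globin genes out of the scaling moved neither total count by 1.5 times. Without the filter, though, the falls between control groups numbered 32 against 67 as reported. RT1-Bb, Fam102a, Hsp90aa1, Hsph1 and Dnaja1 were among the calls lost there. Causes were not tested. Counts left after globin were fewest in lean control 12, at 1321826.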
